A study of Sus scrofa with 6 samples.

Results

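Imprinted genes other than the growth factor IGF2 were read in longissimus dorsi, a long muscle along the spine, from male piglets aged 25 days. The list held 10 genes, with parental classes as known in mouse and human and not tested in these piglets. MEG3 and, in most tissues, GRB10 are maternally expressed. DLK1, PLAGL1, NDN, PEG3, PEG10, SGCE, MEST and NNAT are paternally expressed. A probe set, the group of short probes that together measure a transcript, was taken as a member where its gene symbol was that of a listed gene. It was also taken where the symbol was a placeholder and the title named the gene. This gave 16 probe sets of 9 genes, out of 6265 named genes in all. NDN was listed under its older symbol NECD and was found through its Entrez gene number, and 1 of the 2 GRB10 probe sets was found by its title. No probe set was found for DLK1, which is not analysed here.

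Each of 6 piglets had its own Affymetrix porcine array, with 3 Yorkshire piglets (replicates 1 to 3) and 3 Shaziling piglets (replicates 4 to 6). Yorkshire is a lean commercial breed and Shaziling an indigenous Chinese breed, and neither group carried a treatment. Per the labels' protocols, the 3 piglets of each breed were full brothers, and the breeds came from different farms. The breed of a piglet thus cannot be told apart from its litter or its farm, and each p-value refers to variation among littermates.

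Imprinted genes are expressed mainly from the copy inherited from a single parent, because the other copy is silenced by marks set in the egg or sperm. Many of them act on growth before and after birth, and broadly the paternally expressed ones promote growth while the maternally expressed ones restrain it. In sheep, a mutation in the imprinted domain that holds DLK1 and MEG3 causes overgrowth of the hindquarter muscles, and in mice loss of maternal Grb10 gives larger muscles. An array signal sums the RNA of both parental copies, so none of the values below says which copy was transcribed.

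Muscle fibre genes were clearly detected: all 7 listed fibre markers with a probe set, among them the actin ACTA1, the creatine kinase CKM and the myosins MYH4 and MYH7, were Present on all 6 arrays. Present is the detection call given when a probe set's signal is told apart from that of its mismatch probes. Present calls covered 56.3% to 60.6% of probe sets per array, and the breeds differed by less than the spread between arrays (59.5% ± 1.23 in Yorkshire and 58.1% ± 1.81 in Shaziling, SD, n = 3; two-sided exact permutation p = 0.3, where 0.1 is the lowest that this number of arrays allows). The difference between 3' and 5' actin signals, a sign of RNA length, ranged from 4.18 to 5.12 on the log2 scale. It averaged 4.88 ± 0.17 in Yorkshire and 4.51 ± 0.53 in Shaziling (SD, n = 3). The same difference for GAPDH was far smaller, from 0.34 to 0.46, so the 2 measures gave unlike pictures of RNA length. Of the genes that mark other cells, the satellite cell gene PAX7 had no tested probe set, and the adipocyte genes CIDEA and RETN and the Schwann and nerve cell genes SOX10 and NEFL were Present on no array. A probe set was tested if it had 3 or more Present calls, counted without regard to breed, and 14413 met this.

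Detection of the imprinted probe sets was close to that of all probe sets. Of the 16 probe sets, 7 were Present on all 6 arrays (43.8%, against 47.9% of all probe sets). On no array were 4 of the 16 Present, where this held for 28.8% of all probe sets. The remaining probe sets lay between. In all, 9 probe sets of 7 genes passed the filter and were tested: MEG3, GRB10 (2 probe sets), PLAGL1, NDN, PEG3 (2 probe sets), PEG10 and SGCE. Over the whole array, 14413 of 23999 probe sets passed, and 4527 of 6265 named genes had a tested probe set. MEST and NNAT had no tested probe set. The plot of signals by animal shows all 16 probe sets.

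**Figure D1:**
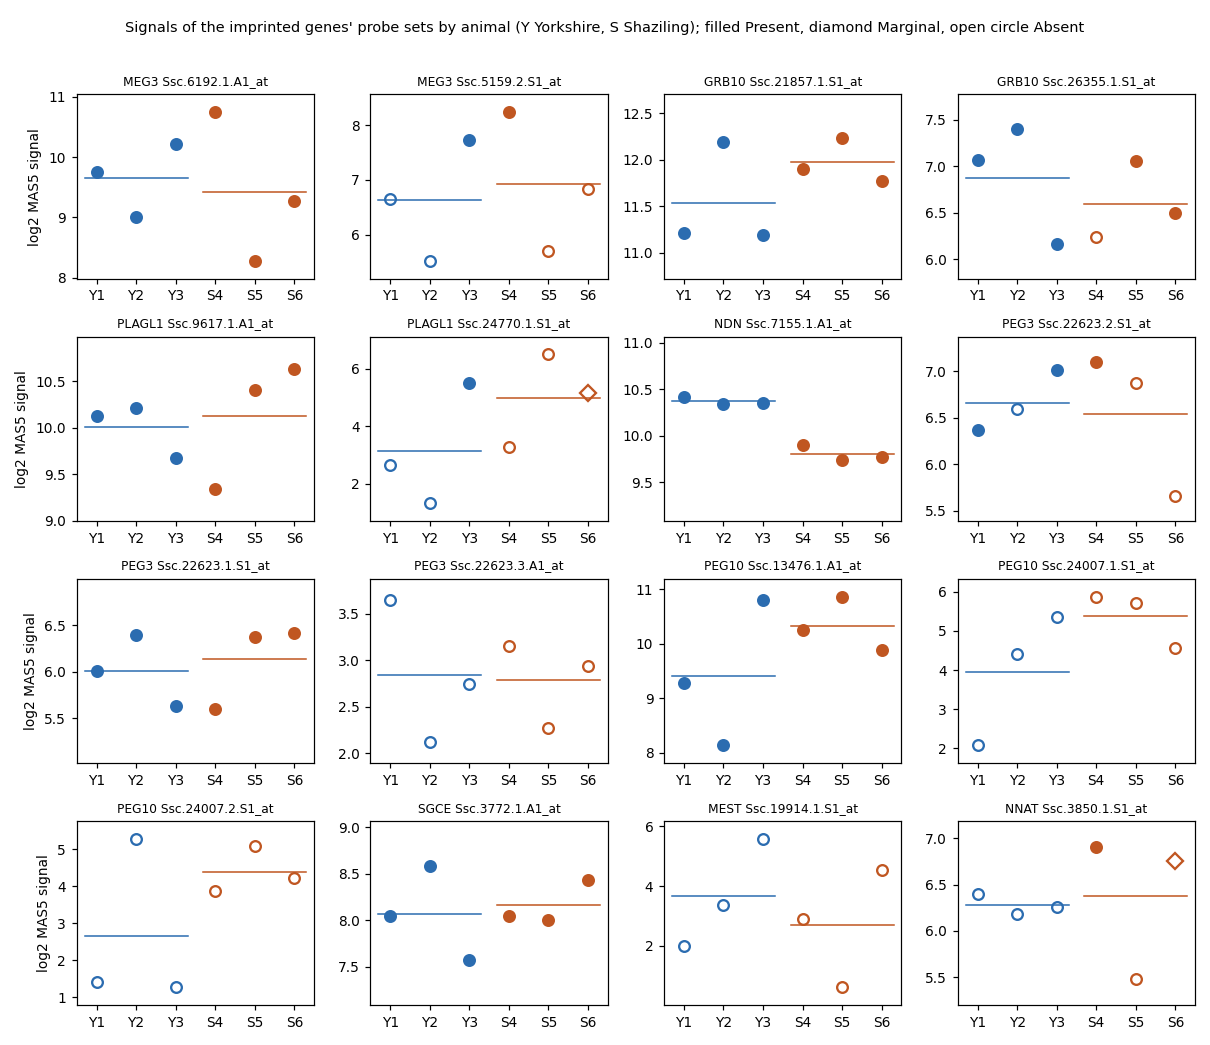
Log2 MAS5 signal (y axis, scaled for each panel) of the 16 imprinted probe sets in the 3 Yorkshire (Y1 to Y3, blue) and 3 Shaziling (S4 to S6, orange) piglets, with lines at the breed means. Filled circles are Present, diamonds Marginal and open circles Absent calls. NDN is the only panel of a tested probe set in which the breeds do not overlap.

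No imprinted gene passed the threshold between the breeds. In limma, 0 of the 9 tested probe sets had an adjusted p under 0.05, against 0.215% of all tested probe sets, and 1 of the 9, that of NDN, had an unadjusted p under 0.05, against 10.4% of all (6.02% for those lower in Shaziling). The breeds did not overlap for that same probe set alone, where 16.3% of all tested probe sets did not overlap. Adjusted p-values ran from 0.323 to 0.948. With the probe set of highest mean signal for each gene, 4 of the 7 genes had a higher mean in Shaziling and 3 a lower one. The median log2 difference, Shaziling minus Yorkshire, was 0.09, and over all tested probe sets it was -0.04. The median of the 7 genes turned negative, to -0.05, without Shaziling replicate 6, and to -0.11 without the PEG3 probe set that matches the reverse strand and the GRB10 probe set found by title. In a piece of whole muscle, fewer cells of a type and less RNA per cell cannot be told apart.

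Genes of both parental classes had differences of either sign, and the classes were not tested against each other. The 5 tested paternally expressed genes had log2 differences from -0.57 to 0.92, with a median of 0.09. Of the 2 maternally expressed genes, GRB10 had 0.44 in the probe set of highest signal, -0.28 in the other and 0.08 as their mean, and MEG3 had -0.23. The plot of breed differences gives the interval of each.

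**Figure D2:**
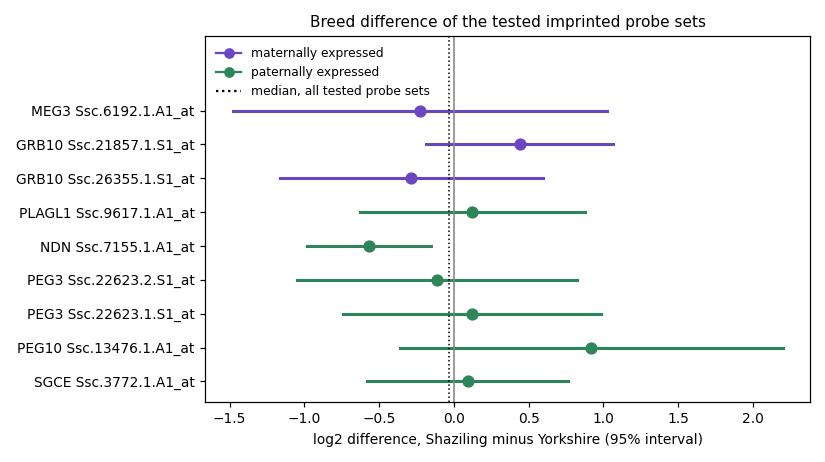
Log2 difference, Shaziling minus Yorkshire (x axis), of the 9 tested imprinted probe sets, with bars for the 95% intervals of the limma model. The dotted line is the median of all tested probe sets (-0.04). NDN, at -0.57, is the only probe set whose interval does not reach 0.

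MEG3, a long non-coding RNA expressed from the maternal chromosome, differed more between brothers than between breeds. Its better detected probe set, Present on all arrays, had log2 signals of 9.75, 9.004 and 10.22 in the Yorkshire piglets and of 10.75, 8.28 and 9.27 in the Shaziling piglets. Each litter held a piglet with a high and a piglet with a low signal, and the breeds overlapped fully. The highest signal was 5.54 times the lowest, and both belonged to Shaziling brothers. Yorkshire averaged 9.66 ± 0.61 and Shaziling 9.43 ± 1.24 (SD, n = 3), giving a log2 difference of -0.23 (SE 0.56, limma adjusted p = 0.921). The interval of that difference, -1.48 to 1.02, includes changes in either direction. Without Shaziling replicate 5 the difference was 0.35, and without Yorkshire replicate 3 it was 0.05.

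The other MEG3 probe set was Present on Yorkshire replicate 3 and Shaziling replicate 4 and Absent elsewhere, and was not tested. Its log2 signals were 6.66, 5.53 and 7.72 in Yorkshire and 8.23, 5.70 and 6.83 in Shaziling. Both MEG3 probe sets were highest in Shaziling replicate 4, next highest in Yorkshire replicate 3, and lowest in Yorkshire replicate 2 and Shaziling replicate 5. The file notes that 8 probes of this second probe set can also bind another transcript. In the file's coordinates, whose assembly version is not given in a readable form, the better detected probe set lies on chromosome 7 from 134048840 to 134049365 on the plus strand, and the other from 134045279 to 134048702. The alignment identity was 74.2% and 97.1%.

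The arrays where MEG3 was high also had more Present calls: 59.9%, 60.6% and 59.9% in Yorkshire replicates 1 and 3 and Shaziling replicate 4, against 58.2%, 56.3% and 58.1% on the others. Signals of ACTA2, a smooth muscle actin, and RGS5, a pericyte gene, the only 2 tested of 5 smooth muscle and pericyte markers, followed a like order. Their mean deviation from each gene's own mean was 0.29, 0.64 and 0.61 on those 3 arrays, and -0.80, -0.42 and -0.32 on Yorkshire replicate 2 and Shaziling replicates 5 and 6. The summed linear signal of these 2 genes ranged from 4551 to 12759 in Yorkshire and from 5787 to 12159 in Shaziling, with neither at 0. The order was not particular to these 2 genes. In the same order of arrays, muscle fibre markers had mean deviations of 0.08, 0.20 and 0.10 against -0.31, 0.04 and -0.12. Fibroblast markers had 0.31, 0.31 and 0.09 against -0.36, -0.45 and 0.11, so Shaziling replicate 6 lay above Shaziling replicate 4. By their mean deviations, the satellite cell, adipocyte, endothelial, nerve and leukocyte markers did not split the arrays in this way. Of the endothelial genes, however, PECAM1 did, with signals of 11.64, 11.94 and 11.68 against 10.58, 11.28 and 10.70. CDH5 did too, with 11.27, 11.36 and 10.85 against 10.54, 10.32 and 9.97, while TEK, VWF and ERG did not. The part of any of these markers in the spread of MEG3 was not tested.

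Probe sets that the file places just beyond MEG3 were read after the MEG3 signals had been seen. Of 3 probe sets without a gene name within 100 kb, the nearest, 6.21 kb away, was Present on all arrays, with 9.23, 8.82 and 9.57 in Yorkshire and 9.18, 8.70 and 9.16 in Shaziling. Its identifier carries the same leading number as that of the second MEG3 probe set. It may thus measure a MEG3 transcript and not a separate gene, which was not tested. One at 31.3 kb had 6.64, 6.34 and 7.32 against 7.63, 5.33 and 6.77. The third, at 31.8 kb, had 7.13, 5.16 and 8.22 against 8.38, 4.08 and 7.45. All 3 were lowest in Shaziling replicate 5 and next lowest in Yorkshire replicate 2. The last 2 had Present calls on only 2 arrays each, and were highest in Shaziling replicate 4, as MEG3 was. For the third, that highest signal was an Absent call, and only Yorkshire replicates 1 and 3 were Present. The nearest did not follow MEG3 at the top, where Yorkshire replicate 3 was highest. For that one, the only one tested, the log2 difference between breeds was -0.20 (SE 0.26, limma adjusted p = 0.836).

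**Figure D3:**
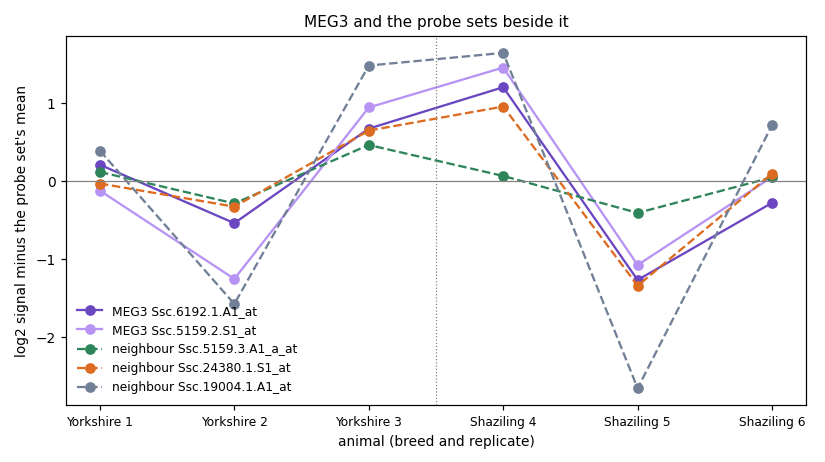
Log2 signal minus the probe set's own mean over the arrays (y axis) for the 2 MEG3 probe sets (solid lines) and the 3 unnamed probe sets within 100 kb of them (dashed lines), by animal (x axis). All 5 dip in Yorkshire replicate 2 and Shaziling replicate 5, and 4 of the 5 peak in Shaziling replicate 4. For the probe set at 31.8 kb, that peak is an Absent call.

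GRB10, an adaptor protein that binds the insulin receptor and restrains its signal and that of the IGF1 receptor, gave different pictures in its 2 probe sets. The probe set found by title had 11.21, 12.19 and 11.19 in Yorkshire and 11.90, 12.23 and 11.78 in Shaziling. Yorkshire replicate 2 lay among the Shaziling signals and the other Yorkshire piglets below them. The log2 difference was 0.44 (SE 0.28, 95% interval -0.18 to 1.07, limma adjusted p = 0.63). It was 0.77 without Yorkshire replicate 2 and 0.27 without Yorkshire replicate 3, and 0.08 as the mean of both GRB10 probe sets. The probe set with the GRB10 symbol had 7.07, 7.40 and 6.16 against 6.23, 7.06 and 6.49, a log2 difference of -0.28 (SE 0.39, limma adjusted p = 0.843). It was Absent on Shaziling replicate 4 and Present on the others, and the breeds overlapped. For this probe set the file notes 7 probes that can also bind another transcript, and an alignment identity of 37.6%, against 97.3% for the one found by title. Both lie on the minus strand of chromosome 9, from 128505495 to 128620351 and from 128470776 to 128494387.

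Few of the receptors and relays that GRB10 acts on could be read. Of 14 listed, 5 had a named probe set and 2 were tested: the insulin receptor INSR had a log2 difference of 0.39 (SE 0.46, limma adjusted p = 0.814) and the adaptor GRB2 -0.11 (SE 0.20, limma adjusted p = 0.883).

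PLAGL1, a zinc finger transcription factor that slows cell division and in mice acts on other imprinted genes, had its well detected probe set Present on all arrays. The log2 signals were 10.13, 10.21 and 9.67 in Yorkshire and 9.35, 10.41 and 10.63 in Shaziling. They were lowest in Shaziling replicate 4 and Yorkshire replicate 3, the arrays with the highest MEG3 signal. The log2 difference was 0.12 (SE 0.33, 95% interval -0.63 to 0.88, limma adjusted p = 0.932). Its sign turned without Yorkshire replicate 3 (-0.04), Shaziling replicate 5 (-0.02) or Shaziling replicate 6 (-0.13). The other PLAGL1 probe set was Present on Yorkshire replicate 3 alone, with signals from 1.33 to 6.49, and was not tested.

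NDN was the imprinted gene with the clearest separation of the breeds, although it did not pass the threshold. NDN encodes necdin, a protein of the MAGE family that binds E2F1 and p53 and, in mice, helps muscle precursor cells differentiate. Its log2 signals were 10.42, 10.35 and 10.35 in Yorkshire and 9.90, 9.74 and 9.78 in Shaziling, with a Present call on every array. All 3 Shaziling signals lay below all 3 Yorkshire signals, with a gap of 0.45 between the nearest pair. The share of all tested probe sets with Shaziling wholly below Yorkshire was 8.89%.

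The NDN means were 10.37 ± 0.04 and 9.80 ± 0.08 (SD, n = 3), which made the signal 1.48-fold lower in Shaziling. The log2 difference was -0.57 (SE 0.18, 95% interval -0.98 to -0.16), with an unadjusted limma p of 0.0123 and an adjusted p of 0.323. The SE is larger than the NDN spread alone would give, since limma draws each probe set's variance toward that of others of like signal. Over the alternative settings the adjusted p ranged from 0.0684 with array weights to 0.696 without Yorkshire replicate 1, and the difference stayed between -0.62 and -0.54. The probe set is placed on chromosome 1 from 149820296 to 149820485 on the plus strand, with an alignment identity of 44.1%.

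Genes that work with necdin or belong to its family did not pass the threshold either. All 5 tested of 6 listed had negative log2 differences, as had 7759 of all 14413 tested probe sets. The median of the 5 was -0.38 against -0.04 over all tested probe sets, and 0 of the 5 had an unadjusted limma p under 0.05. Without Shaziling replicate 5 the median was -0.15, and without Yorkshire replicate 2 it was -0.67. Their mean deviations were 0.46, -0.16 and 0.58 in Yorkshire and 0.09, -0.92 and -0.04 in Shaziling, highest on the arrays where MEG3 was high. The part of this shared order in their breed differences was not tested. E2F1, the cell cycle transcription factor, had -1.45 (SE 0.65, limma adjusted p = 0.481), with 7.82, 6.63 and 7.87 in Yorkshire and 6.95, 4.36 and 6.64 in Shaziling. Its lowest signal, in Shaziling replicate 5, was an Absent call, and without that array the difference was -0.64. The MAGE family genes MAGED2 and MAGEH1 had -0.56 (SE 0.31) and -0.38 (SE 0.25). For each of these genes the breeds overlapped.

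PEG3, a zinc finger protein, had 3 probe sets, and they did not move together. The probe set of highest mean signal had 6.37, 6.59 and 7.01 in Yorkshire and 7.10, 6.87 and 5.66 in Shaziling, with Present calls on 3 arrays. Its log2 difference was -0.11 (SE 0.42, 95% interval -1.05 to 0.82, limma adjusted p = 0.948). The probe set Present on all arrays had 6.01, 6.39 and 5.62 against 5.595, 6.38 and 6.42, a log2 difference of 0.12 (SE 0.38, limma adjusted p = 0.942). For that probe set the file notes that 11 probes match the negative strand of the PEG3 transcripts, and it is aligned to the plus strand while both others are aligned to the minus strand. Whether it measures PEG3 mRNA was not tested. Shaziling replicate 6 was the lowest of the 6 arrays in the former probe set and the highest in the latter. The remaining probe set was Absent on all arrays, at 2.12 to 3.65. The 3 lie on chromosome 6 between 42738235 and 42740380.

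PEG10, a gene derived from a retrotransposon and needed for the placenta in mice, had the widest spread of the tested imprinted probe sets. The log2 signals were 9.29, 8.14 and 10.81 in Yorkshire and 10.25, 10.87 and 9.89 in Shaziling, all Present. The 3 Shaziling brothers lay within a 1.97-fold range, while the Yorkshire brothers spanned 6.35-fold. Yorkshire replicates 1 and 2 lay below every Shaziling signal, and Yorkshire replicate 3 lay among them. The mean was 1.89-fold higher in Shaziling (9.41 ± 1.34 against 10.33 ± 0.49, SD, n = 3). The log2 difference of 0.92 (SE 0.57, limma adjusted p = 0.62) had a 95% interval of -0.36 to 2.20, from 1.28-fold lower to 4.59-fold higher. Without Yorkshire replicate 2 it was 0.28, and without Yorkshire replicate 3 it was 1.62.

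The other PEG10 probe sets were Absent on all arrays. They had signals of 2.08 to 5.88 and of 1.28 to 5.29, and 11 probes of the latter match the negative strand. The probe set that was detected lies on chromosome 9 from 69776972 to 69778319 on the plus strand, downstream of both others, with an alignment identity of 98.1%.

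SGCE, the epsilon member of the sarcoglycans, which sit in the muscle and nerve cell membrane, shares an imprinted domain with PEG10. Its signals were 8.05, 8.58 and 7.58 in Yorkshire and 8.04, 8.004 and 8.43 in Shaziling, all Present. Yorkshire replicate 2 was the highest and Yorkshire replicate 3 the lowest, the reverse of their order for PEG10. Over the 6 arrays the Pearson correlation of SGCE and PEG10 was -0.76, given as a description, since the arrays come from 2 litters. The log2 difference of SGCE between breeds was 0.09 (SE 0.30, 95% interval -0.58 to 0.76, limma adjusted p = 0.944). Its alignment identity was 50.1%. CASD1, a named gene that the file's coordinates place between SGCE and PEG10, was read after the members' signals had been seen. That order depends on the SGCE alignment of low identity and was not tested. CASD1 had -0.21 (SE 0.22, limma adjusted p = 0.782).

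Other genes of the sarcoglycan and dystrophin complex were tested for 3 of 12 listed. The delta sarcoglycan SGCD had a log2 difference of 0.16 (SE 0.16), with every Shaziling signal above every Yorkshire one as for 7.42% of all tested probe sets, dystrophin DMD 0.32 (SE 0.35) and the syntrophin SNTB1 0.07 (SE 0.35). None passed in limma, with adjusted p-values from 0.781 to 0.964, and none had an unadjusted p under 0.05.

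MEST and NNAT stayed at or near background. MEST, a hydrolase of mesoderm that in mice marks growing fat cells, was Absent on all arrays, with log2 signals of 1.99, 3.37 and 5.58 in Yorkshire and 2.91, 0.61 and 4.53 in Shaziling. NNAT, neuronatin, a small membrane protein known from neurons and fat cells, was Present on Shaziling replicate 4, Marginal on Shaziling replicate 6 and Absent elsewhere. Its signals were 6.39, 6.18 and 6.26 in Yorkshire and 6.90, 5.48 and 6.75 in Shaziling. Neither gene was tested, and no fold is given for them.

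Neuronatin resembles phospholamban, a small inhibitor of the muscle calcium pump, so the pumps and their small regulators were also read. Of the 4 genes, 3 had positive log2 differences and phospholamban, PLN, had -0.59 (SE 0.27, limma adjusted p = 0.499). The fast fibre pump ATP2A1 had 0.46 (SE 0.21, limma adjusted p = 0.495). No member of the list passed.

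Imprinted genes varied very unequally between littermates. The SD between brothers, pooled over both breeds, was 1.01 for PEG10 and 0.98 for MEG3 on the log2 scale, larger than that of 97.2% and 96.8% of all tested probe sets. For NDN it was 0.07, larger than that of only 0.659%. The other 6 tested probe sets had SDs from 0.39 to 0.59, all above the median of 0.34 for all tested probe sets.

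**Figure D4:**
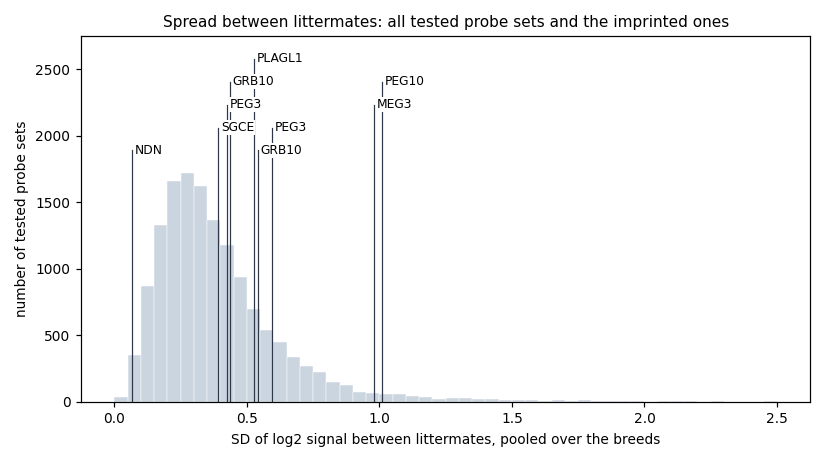
Number of tested probe sets (y axis) by the SD of the log2 signal between littermates, pooled over the breeds (x axis, bins of 0.05, values above 2.5 in the last bin). Lines mark the 9 imprinted probe sets. NDN lies at the left edge at 0.07, and MEG3 and PEG10 far to the right at 0.98 and 1.01.

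Further imprinted genes were read from a list of 38, of which 15 had a named probe set and 11 were tested. None passed in limma. Of the 11, 8 had positive and 3 negative log2 differences, where all 14413 tested probe sets had 6654 positive and 7759 negative ones. The median of the 11 was 0.14 against -0.04 over all tested probe sets, and 0.01 without Yorkshire replicate 3. DDC, the decarboxylase that makes dopamine and serotonin, had 0.92 (SE 0.32, limma adjusted p = 0.349), and was the only one of the 11 with an unadjusted p under 0.05 (0.0177), a share near the 10.4% of all tested probe sets. Its signals were 8.22, 8.01 and 7.62 in Yorkshire and 8.21, 9.24 and 9.17 in Shaziling, overlapping in Shaziling replicate 4 alone, where the call was Absent. DIRAS3, a growth-restraining GTPase, had 0.76 (SE 0.38, limma adjusted p = 0.531). PHLDA2, which limits placental growth in mice, had 0.56 (SE 0.30, limma adjusted p = 0.557), with 6.57, 6.30 and 6.95 in Yorkshire and 7.00, 7.08 and 7.42 in Shaziling. It was the only one of the 11 without overlap, where 16.3% of all tested probe sets did not overlap. IGF2R, ASCL2, DIO3 and OSBPL5 had a probe set but did not reach 3 Present calls.

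Among the factors that keep imprints, 2 of 7 listed were tested. The methyltransferases DNMT3A and DNMT1 had log2 differences of -0.49 (SE 0.25, limma adjusted p = 0.539) and -0.26 (SE 0.20, limma adjusted p = 0.702). Of 11 Notch pathway genes, read because DLK1 acts on Notch, the 3 tested had differences between -0.08 and 0.06, and none passed in limma.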

How the data were processed

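The deposited signals are on a log2 scale, and MAS5 is the tool that the submitters' processing notes name, with its version not given in the sources used. A 2% trimmed mean near 500 on every array (500.1 to 500.2) shows that the arrays had been scaled. Detection calls, and the percent identity of each probe set's alignment, were taken from the deposited table, per the file headers. Its annotation dates from 2011, and symbols were updated through Entrez numbers and a RefSeq table of Sscrofa11.1, used for names alone. A second deposited table held the same signals (0 differing values).

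Without the 124 Affymetrix controls, 23999 probe sets remained; 2 reporter-gene probe sets stayed among those tested. Probe sets Present on at least 3 arrays were fitted with limma 3.58.1 in R 4.3.3 (lmFit, eBayes with trend), and p-values were adjusted by Benjamini-Hochberg over all 14413, with a threshold of 0.05. All adjusted p-values come from limma. Array number limits the precision. The fit was tested on simulated data with random noise set from each probe set's spread between brothers. At an adjusted limma p under 0.05 it recovered 18% of added log2 differences of 1 and 64.8% of those of 2. Members, gene lists and tests were chosen with earlier results of these data known. All members are named, and from each other list genes past the threshold, otherwise up to 3 of smallest p, with 1 probe set per gene (highest mean signal). Any other gene was named after its values were seen. Some genes of similar pattern are not reported here.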

Additional observations from a re-analysis of the deposited data

How the results depend on the processing

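No imprinted probe set passed under any of the 15 alternative fits, in which the lowest adjusted limma p was 0.0684 (NDN, array weights). The count over all probe sets, 31, was 13 without a filter on dim probe sets, 19 for those Present on all 6 arrays, 8 without a trend in eBayes and 364 with array weights. With 1 array left out it lay from 0 to 27. It was 0 without Yorkshire replicate 1 (1020 at an unadjusted limma p under 0.05) or without Shaziling replicate 6 (1096). Higher calls were 14 of 31 in the main fit, 6 of 19 for probe sets Present on all arrays and 132 of 364 with array weights. The median log2 difference of the imprinted genes, 0.09, lay from -0.05 to 0.23 with 1 array left out, and was -0.11 without the PEG3 probe set that matches the reverse strand and the GRB10 probe set found by title, an alternative chosen after seeing the data. With 1 array left out, the log2 difference ranged from -0.89 to 0.35 for MEG3, from -0.13 to 0.51 for PLAGL1, from -0.39 to 0.33 for the PEG3 probe set of highest signal, from -0.0697 to 0.39 for the reverse-strand one and from -0.15 to 0.35 for SGCE, changing sign in each. That of PEG3 was 0.004 as the mean of its tested probe sets. NDN, PEG10 and the GRB10 probe set found by title kept their sign in all 15. The other GRB10 probe set kept its own in the 13 that gave it a value, while the mean of both was 0.08, of the opposite sign. Apart from the left-out array or probe set, the cause was not tested. Leaving out arrays for the other gene lists was also chosen after seeing the data. No paired analysis was possible because each breed was a separate litter from a different farm. No slide or scan date was given, so no such block was fitted. With 3 littermates per breed, the intervals of MEG3, PEG10, both GRB10 probe sets and the PEG3 probe set of highest signal reach past 2-fold.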

Other observations

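For each tested imprinted probe set, the 2 named genes of the most similar pattern over the 6 arrays were picked by the Pearson correlation, as a description. With 5776 or 5777 probe sets compared over 6 arrays from 2 litters, no p is given. NDN was most like NENF, a secreted neurotrophic protein (r = 0.996), with log2 signals of 10.51, 10.42 and 10.51 in Yorkshire and 9.75, 9.45 and 9.60 in Shaziling. Next came SFXN4, a sideroflexin of the inner mitochondrial membrane (r = 0.993), which, unlike NDN, passed the threshold between breeds. MEG3 was most like TMEM44, a membrane protein (r = 0.995), with 6.98, 6.42 and 7.53 against 7.78, 5.92 and 6.71. PLAGL1, which slows cell division, was most like CDKN1B, the cell cycle inhibitor p27 (r = 0.990), with 6.26, 6.41 and 5.65 against 5.40, 6.60 and 6.71. It was followed by TGFBR1, a receptor of the transforming growth factor beta family (r = 0.988).

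The GRB10 probe set found by title went with RAB5C (r = 0.982), and the other with TRAF6 (r = 0.992). PEG10 went with DSTN, an actin-severing protein (r = 0.980), and KLF11 (r = 0.979), and SGCE with FNTB and PDZRN3 (r = 0.980 and 0.979). The PEG3 probe set of highest signal went with ENPP6 (r = 0.979) and DDX19A (r = 0.976). The PEG3 probe set that matches the reverse strand went with the stress and inflammation transcription factors CEBPD (r = 0.993) and ATF4 (r = 0.990). CEBPD had 11.99, 12.83 and 11.44 in Yorkshire and 11.38, 12.70 and 12.68 in Shaziling.

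Among the imprinted probe sets themselves, that same PEG3 probe set had r = 0.94 with PLAGL1 and r = -0.90 with MEG3, and PLAGL1 had r = -0.85 with MEG3. The 2 GRB10 probe sets had r = 0.43 with each other, and the 2 tested PEG3 probe sets r = -0.64.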
